A study of Mus musculus with 6 samples.

Results

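The immunoglobulin light chain variable (V) segments are the gene pieces, named Igkv at the kappa locus and Iglv at the lambda locus, from which the antigen-binding domain of every antibody light chain is built. Each B cell joins a single V segment to a joining (J) segment, and the joined exon is spliced to a constant gene, so that V transcripts in a tissue mark the B cells and, above all, the antibody-secreting plasma cells within it. In mice most light chains are kappa, and in the lacrimal gland the resident plasma cells chiefly secrete IgA for the tear film. Members were chosen by a rule on the counts themselves: a symbol starting with Igkv or Iglv in GENCODE mouse release M21, and at least 12 counts summed over all 6 libraries. The rule took 94 of 163 light chain V rows, 91 of them Igkv and 3 Iglv, out of 55401 rows in the table. Of these members, 91 were annotated as V genes and 3 as V pseudogenes. The other 69 rows lay under the threshold, 13 of them above 0, and 50 of the 56 rows at 0 in every library were annotated as pseudogenes. Just inside the threshold lay Igkv18-36 with 14 summed counts, and Igkv1-108 and Igkv3-3 with 17 summed counts each. Just outside lay Igkv4-71 with 10, Igkv1-115 with 9 and Igkv4-75 with 6 summed counts.

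Polyadenylated RNA of whole lacrimal glands, the tear-producing glands of the orbit, was sequenced from NOD/Ltj mice (3 libraries) and from ICR mice, labelled as the control (3 libraries). The inbred NOD/Ltj strain develops autoimmune inflammation without treatment, in the lacrimal gland among other organs, and ICR is an outbred stock, so the groups differ in their whole genetic background. The labels name no treatment, age or sex, and do not tie the libraries to separate mice, so the p-values below cover only how far these libraries spread. Totals ran from 62318534 to 64000969 estimated counts in NOD/Ltj and from 58426580 to 76554340 in ICR, of which light chain V segments took 0.0115 to 0.0193% in NOD/Ltj and 0.00302 to 0.0222% in ICR. A fragment was taken to add about 4 counts, so that a count of 0 allows up to 12 counts in a library. A segment is called used in a library from 12 counts on. Acinar cell genes were abundant in every library (4 of 5 listed markers found, summed 866 to 1605 CPM in NOD/Ltj and 1133 to 1557 CPM in ICR). CPM is a count scaled to the TMM-adjusted size of its library.

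The summed level of the 94 segments overlapped between the strains. It was 224.7, 151.1 and 108.9 CPM in NOD/Ltj 1, 2 and 3, against 25.5, 274.2 and 67.6 CPM in ICR 1, 2 and 3. The means were 162 ± 58.6 CPM in NOD/Ltj and 122 ± 133 CPM in ICR (SD, n = 3 each). ICR 2 held the highest level of all 6 libraries and ICR 1 the lowest, so the control group spread more widely than the difference of 39.2 CPM between the means. Without ICR 2 the difference became 115 CPM, and without ICR 1 it turned to −9.31 CPM. In fragments, the V segments rested on about 3035, 3034 and 1798 in NOD/Ltj, against 441, 4246 and 967 in ICR. ICR 1 was thus by far the shallowest view of the repertoire, and ICR 2 the deepest. ICR 2 was the library with the highest count for 42 of the 94 members, and ICR 1 for 0.

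**Figure D1:**
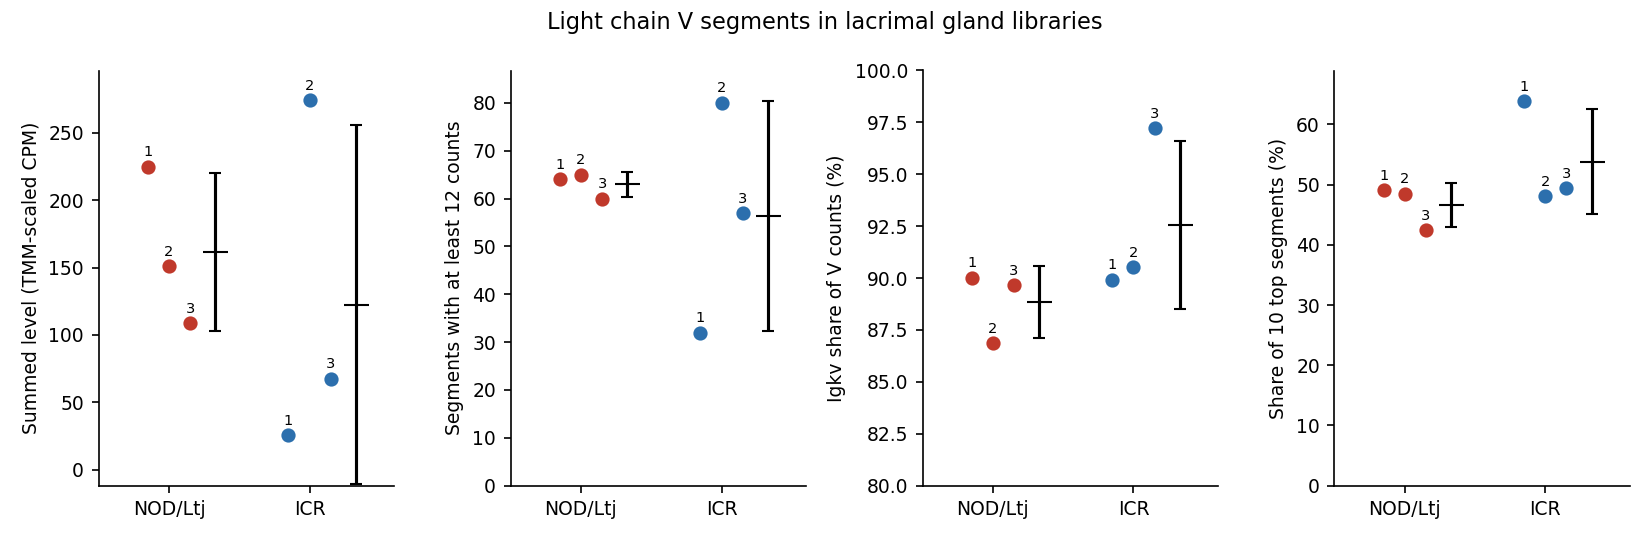
Light chain V segments by library, with NOD/Ltj (red) left of ICR (blue): summed level in TMM-scaled CPM, number of segments with at least 12 counts, Igkv share of V counts in percent (axis from 80) and share of the 10 top segments in percent. Points are libraries with their replicate number, and bars are the mean ± SD (n = 3); the ICR points spread more widely than the NOD/Ltj points in all 4 panels, from 32 to 80 segments used, for example.

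The number of segments used was similar in the NOD/Ltj libraries and varied among the ICR libraries. At least 12 counts were reached by 64, 65 and 60 segments in NOD/Ltj, against 32, 80 and 57 in ICR, or 63.0 ± 2.65 in NOD/Ltj and 56.3 ± 24.01 in ICR (SD, n = 3 each). In ICR the order followed depth: the 32 segments stood in the library with 441 fragments and the 80 segments in the one with 4246. Counting any segment above 0, there were 70, 73 and 74 in NOD/Ltj, against 52, 89 and 73 in ICR. When every library was reduced to the depth of ICR 1, the expected number of segments seen at all, with no minimum count, was 56.5, 59.1 and 61.5 in NOD/Ltj, against 52.0, 69.6 and 65.5 in ICR. The groups overlapped on both of these scales too, with a difference of the means of 1.0 segments at full depth and −3.31 segments at equal depth. With at least 40 counts asked for, 47, 49 and 44 segments remained in NOD/Ltj, against 11, 68 and 33 in ICR. Of the 94 members, 21 were used in all 6 libraries, 51 in all 3 NOD/Ltj libraries and 28 in all 3 ICR libraries.

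The share of V counts in the top segments showed how evenly the repertoire was spread. The 10 top segments of each library held 49.0, 48.5 and 42.5% of its V counts in NOD/Ltj, against 63.9, 48.1 and 49.4% in ICR. Means were 46.7 ± 3.66% in NOD/Ltj and 53.8 ± 8.73% in ICR (SD, n = 3 each), and the groups overlapped. The effective number of segments, the exponential of the Shannon entropy of the shares, was 38.4, 40.2 and 44.8 in NOD/Ltj, against 24.1, 45.7 and 40.8 in ICR. ICR 1 was the most concentrated library on both measures. The most even was ICR 2 by the effective number and NOD/Ltj 3 by the share of the 10 top segments. Neither measure was corrected for depth. A single segment never held the bulk of the V counts: the top segment was Iglv1 in all 3 NOD/Ltj libraries with 9.19, 8.15 and 7.37%, against Igkv14-111 with 21.9% in ICR 1, Iglv1 with 8.94% in ICR 2 and Igkv14-111 with 13.3% in ICR 3. Shares are of counts and are not divided by length, and the members' annotated transcripts ran from 286 to 501 bases with a median of 359.

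Igkv14-111 stood furthest apart between the strains among the abundant segments. It had 0, 9 and 9 counts in NOD/Ltj, against 387, 956 and 515 counts in ICR. Every NOD/Ltj library lay within what a count of 0 allows, and every ICR library lay far above it. As a share of V counts this was 0, 0.0742 and 0.125% in NOD/Ltj (95% Wilson upper limits of 0.126, 0.240 and 0.405%), against 21.9, 5.63 and 13.3% in ICR (intervals of 18.4 to 26.1, 4.97 to 6.36 and 11.3 to 15.6%). Intervals take 4 counts as 1 fragment and cover counting error only, since the reads carried no molecular identifiers. Its level was 0.083 ± 0.073 CPM in NOD/Ltj and 10.01 ± 5.00 CPM in ICR (SD, n = 3 each). The segment fell by 6.82 ± 0.81 on the log2 scale in NOD/Ltj (SE, adjusted p = 0.0108 by edgeR's quasi-likelihood test over 18537 genes). The call was lost without NOD/Ltj 2 (adjusted p = 0.0650) and without NOD/Ltj 3 (adjusted p = 0.0715), while the log2 fold change stayed between −7.28 and −6.32 whichever library was left out.

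The nearest segment to Igkv14-111 in the annotation was Igkv14-126, with 90.71% identity over the last 280 bases of the V exon. Igkv14-126 had 0, 69 and 11 counts in NOD/Ltj, against 0, 5 and 11 in ICR, so its counts were low in both strains. The sequences are shown because Igkv14-111 carries the largest difference in share between the strains. They are GENCODE M21 transcript sequences on GRCm38, the C57BL/6J genome, written from 5′ to 3′ on the coding strand, with the bases that differ from the partner in capitals. Igkv14-111 lies at chr6:68256389-68256869 and Igkv14-126 at chr6:67896172-67896642, both on the plus strand, and the bases printed are coding V exon up to the end of the segment. Neither NOD/Ltj nor ICR is the strain of that genome, and strain sequences were not analysed here.
Igkv14-111: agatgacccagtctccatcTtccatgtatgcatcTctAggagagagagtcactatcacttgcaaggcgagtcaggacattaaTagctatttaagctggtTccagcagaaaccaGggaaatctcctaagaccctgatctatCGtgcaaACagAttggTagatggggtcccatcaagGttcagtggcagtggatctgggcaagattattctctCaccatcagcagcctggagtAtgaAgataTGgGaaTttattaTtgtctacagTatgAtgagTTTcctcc
Igkv14-126: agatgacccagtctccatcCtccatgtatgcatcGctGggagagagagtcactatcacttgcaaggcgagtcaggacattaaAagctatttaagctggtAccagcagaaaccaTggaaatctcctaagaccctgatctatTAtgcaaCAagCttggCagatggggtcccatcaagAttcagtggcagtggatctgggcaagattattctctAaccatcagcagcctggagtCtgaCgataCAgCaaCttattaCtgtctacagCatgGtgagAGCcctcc

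Igkv3-2, the next to last segment before the kappa J segments, was the only other member that edgeR called. It had 0, 0 and 0 counts in NOD/Ltj, against 25, 52 and 48 counts in ICR. All ICR libraries lay above the 12 counts that a 0 allows, and all NOD/Ltj libraries were at 0. Pooled over libraries it was at least 11.1-fold lower in NOD/Ltj, against a floor of 12 counts over the group, with an adjusted p of 0.0324 by edgeR's quasi-likelihood test. This call was the less stable one: it was lost when NOD/Ltj 2 (adjusted p = 0.105), NOD/Ltj 3 (0.117), ICR 2 (0.133) or ICR 3 (0.127) was left out. Its neighbour Igkv3-1, with 93.21% identity over the printed bases, had 417, 158 and 125 counts in NOD/Ltj, against 42, 151 and 18 in ICR. The neighbour was therefore present in the libraries where Igkv3-2 was at 0. Igkv3-2 lies at chr6:70698449-70699067 and Igkv3-1 at chr6:70703578-70704177 on the plus strand, and capitals again mark the bases that differ.
Igkv3-2: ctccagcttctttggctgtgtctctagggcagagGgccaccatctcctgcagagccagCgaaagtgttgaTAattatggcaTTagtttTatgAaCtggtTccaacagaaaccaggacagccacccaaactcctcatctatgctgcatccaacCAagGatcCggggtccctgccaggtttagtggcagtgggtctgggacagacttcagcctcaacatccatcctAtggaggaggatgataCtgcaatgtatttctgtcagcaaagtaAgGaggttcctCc
Igkv3-1: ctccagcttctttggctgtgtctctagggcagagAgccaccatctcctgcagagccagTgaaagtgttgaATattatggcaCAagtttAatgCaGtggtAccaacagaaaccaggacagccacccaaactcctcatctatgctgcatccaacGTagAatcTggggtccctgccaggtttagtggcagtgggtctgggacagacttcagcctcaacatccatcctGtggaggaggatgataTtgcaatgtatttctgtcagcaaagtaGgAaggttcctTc

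Igkv8-30 had the same pattern of counts and missed the threshold. It had 0, 0 and 0 counts in NOD/Ltj, against 22, 225 and 51 in ICR, or at least 26.4-fold lower in NOD/Ltj against the floor of 12 counts over the group (adjusted p = 0.0671 by edgeR). Its nearest segments in the annotation were Igkv8-19 and Igkv8-24, each with 92.14% identity to it. Igkv8-19 had 160, 222 and 154 counts in NOD/Ltj, against 73, 44 and 22 in ICR. Its log2 fold change was 1.90 ± 0.43 (SE, adjusted p = 0.0820 by edgeR). Igkv8-30 and Igkv8-19 thus stood on opposite sides, with no overlap between the strains for either, and edgeR called neither. DESeq2's Wald test called both (adjusted p = 2.63e-07 for Igkv8-30 and 0.0012 for Igkv8-19), and edgeR called both without ICR 1 (adjusted p = 0.0331 and 0.0381). They share 92.14% of the printed bases, and lie on the minus strand at chr6:70117061-70117620 (Igkv8-30) and chr6:70340876-70341453 (Igkv8-19).
Igkv8-30: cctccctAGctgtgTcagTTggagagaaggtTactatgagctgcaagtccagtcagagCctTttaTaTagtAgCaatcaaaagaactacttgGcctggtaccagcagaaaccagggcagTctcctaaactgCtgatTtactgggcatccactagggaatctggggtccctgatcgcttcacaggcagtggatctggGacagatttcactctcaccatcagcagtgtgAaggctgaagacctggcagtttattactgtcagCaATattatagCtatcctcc
Igkv8-19: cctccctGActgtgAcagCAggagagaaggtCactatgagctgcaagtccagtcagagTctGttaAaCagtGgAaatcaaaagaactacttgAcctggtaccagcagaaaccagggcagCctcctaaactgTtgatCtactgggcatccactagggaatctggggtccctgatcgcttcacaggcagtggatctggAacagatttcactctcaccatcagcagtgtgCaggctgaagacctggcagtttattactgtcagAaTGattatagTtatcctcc

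Across the members, 70 passed the filter on low counts and were tested. By edgeR's quasi-likelihood test 0 rose, where 1.88% of all genes tested did so. Igkv14-111 and Igkv3-2 fell, which is 2.86% of the members tested, where 0.361% of all genes tested fell. At an unadjusted p under 0.05 there were 10 members higher and 4 lower, and DESeq2's Wald test called 6 higher and 4 lower. The groups did not overlap for 12 members that were higher in NOD/Ltj (17.1% of those tested, where 11.2% of all genes tested were so) and for 4 that were lower (5.71%, where 8.89% of all genes were so). The median log2 fold change was 0.72 over the 70 members tested and −0.03 over all genes tested, with 49 members positive and 21 negative. These counts describe the members that passed the filter and test nothing: 18 of the 94 members had under 12 counts summed over NOD/Ltj alone and 10 had under 12 summed over ICR alone, so they had entered the list only through the other strain.

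**Figure D2:**
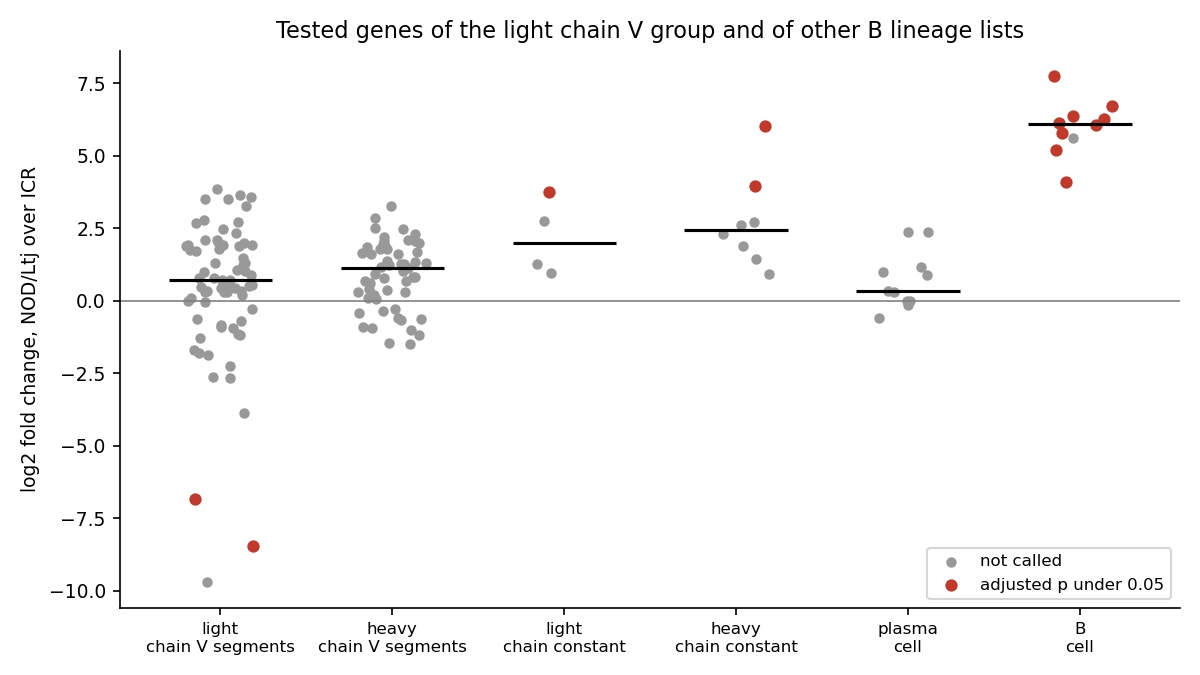
Log2 fold changes, NOD/Ltj over ICR, of every tested gene in the light chain V group and in 5 other B lineage lists. Each point is a gene, red where the adjusted p was under 0.05, and the black line is the list's median; 2 of 70 light chain V segments were called, both lower, against 9 of 10 B cell genes, all higher.

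Several segments stood higher in NOD/Ltj without being called by edgeR. Igkv2-109 had 252, 333 and 246 counts in NOD/Ltj, against 38, 73 and 11 in ICR, with a log2 fold change of 2.70 ± 0.60 (SE, adjusted p = 0.0768). Igkv6-29 had 94, 50 and 61 counts in NOD/Ltj, against 9, 0 and 5 in ICR, with a log2 fold change of 3.87 ± 1.00 (SE, adjusted p = 0.123 by edgeR). Neither overlapped between the strains, and the ICR counts of Igkv6-29 were within what a 0 allows. Igkv8-24 rested at 4.37 ± 1.88 CPM in NOD/Ltj and 0.450 ± 0.676 CPM in ICR (SD, n = 3 each), also without overlap (adjusted p = 0.327 by edgeR). On the other side, Igkv5-48 stood at 0.072 ± 0.064 CPM in NOD/Ltj and 1.13 ± 1.13 CPM in ICR (SD, n = 3 each), with a log2 fold change of −3.88 (adjusted p = 0.179 by edgeR). The ICR libraries alone spread from 0.347 to 2.43 CPM for Igkv5-48. DESeq2's Wald test called Igkv2-109 (adjusted p = 0.000159), Igkv6-29 (0.00105) and Igkv5-48 (0.00722), and did not call Igkv8-24 (0.374).

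For a few of the segments used in all libraries, the strains did not overlap in share and overlapped in level. Igkv10-96 took 6.11, 6.08 and 6.20% of V counts in NOD/Ltj, against 4.25, 5.70 and 5.22% in ICR. Igkv6-20 took 4.94, 4.75 and 4.12% in NOD/Ltj, against 1.25, 2.87 and 1.5% in ICR. Both shares were higher in every NOD/Ltj library than in any ICR library. The 95% Wilson intervals of Igkv10-96 overlapped, for example 5.27 to 6.97% in NOD/Ltj 2 and 5.04 to 6.44% in ICR 2. Segments used in ICR only, described below, held 26.7, 20.5 and 26.7% of V counts in ICR. They lower the ICR shares of all other segments, and shares without them were not calculated here. Igkv5-45 averaged 4.67 ± 1.76% in NOD/Ltj and 1.62 ± 0.299% in ICR, and Igkv4-53 averaged 3.97 ± 1.73% in NOD/Ltj and 1.17 ± 0.194% in ICR (SD, n = 3 each). Igkv6-23 ran the other way, with 0.651, 0.857 and 0.431% in NOD/Ltj, against 2.27, 3.66 and 1.68% in ICR. As levels in CPM, none of these 5 segments was called, with adjusted p from 0.335 (Igkv5-45) to 0.858 (Igkv10-96) by edgeR. Igkv5-45 and Igkv5-43 differ at 3 of 280 bases and Igkv6-29 and Igkv6-20 share 98.21% of them, so reads of such pairs may have been split between them by the counting. Of the 94 members, 44 had a segment at least 95% identical over the same window and 6 had one at least 98% identical.

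Libraries of 1 strain can also be compared by how much of their V use they share, taken as the sum over segments of the smaller of their 2 shares. Pairs of NOD/Ltj libraries shared 74.4 to 78.4% of their use, pairs of 1 library from each strain shared 47.0 to 58.8%, and pairs of ICR libraries shared 54.8 to 56.6%. At these unequal depths, the NOD/Ltj libraries thus shared more with each other than the ICR libraries did. Every ICR pair held ICR 1 or ICR 3, with about 441 and 967 V fragments. Both were shallower than any NOD/Ltj library, which held about 1798 to 3035. The shared use was not calculated at a common depth, so the part of depth in this difference was not tested.

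**Figure D3:**
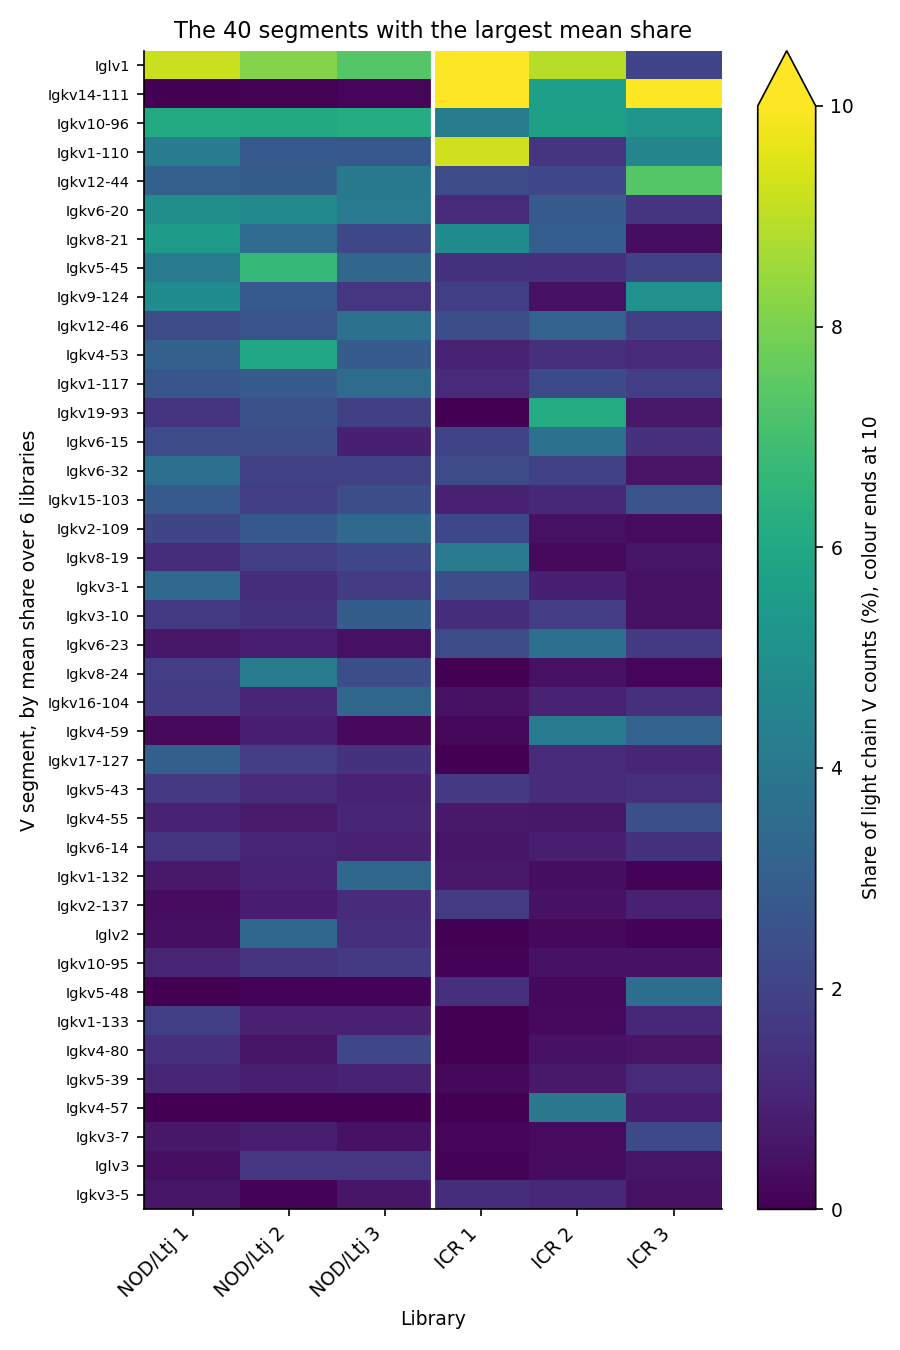
Share of light chain V counts, in percent, of the 40 segments with the largest mean share, in NOD/Ltj 1 to 3 (left of the white line) and ICR 1 to 3 (right). The colour scale ends at 10%, which Igkv14-111 passed in ICR 1 (21.9%) and ICR 3 (13.3%); the 3 NOD/Ltj columns look alike, and the Igkv14-111 row is dark in all of them.

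A group of segments was used in ICR and not in NOD/Ltj. Of the 94 members, 62 reached 12 counts in some library of each strain, 19 in ICR libraries only, 10 in NOD/Ltj libraries only and 3 in none. These groups were formed from the counts themselves and are a description. The 19 ICR-only segments held 0.124, 0.190 and 0.417% of V counts in NOD/Ltj, against 26.7, 20.5 and 26.7% in ICR. Igkv14-111 alone held 21.9 of the 26.7% in ICR 1, 5.63 of the 20.5% in ICR 2 and 13.3 of the 26.7% in ICR 3. The 10 NOD/Ltj-only segments held 1.74, 2.59 and 4.12% in NOD/Ltj, against 1.47, 0.230 and 0.517% in ICR. With ICR 2 not counted, 11 segments were ICR-only, with 0, 0.190 and 0.264% of V counts in NOD/Ltj, against 26.3% in ICR 1 and 25.9% in ICR 3.

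Of the ICR-only segments, 13 were at 0 in all 3 NOD/Ltj libraries, and 7 of these had at least 12 counts in 2 or more ICR libraries. In the other direction, 4 members were at 0 in all 3 ICR libraries. The share of all genes at 0 in only 1 of the strains was not calculated here, so these numbers have no background beside them. Igkv4-57 had 0, 673 and 31 counts in ICR, and was at least 62.4-fold lower in NOD/Ltj against the floor of 12 counts over the group. Igkv4-91 had 0, 383 and 42 counts in ICR (at least 37.7-fold lower in NOD/Ltj), and Igkv6-17 had 0, 346 and 9 counts (at least 31.5-fold lower). Most of these folds were carried by ICR 2, which had the highest count for 12 of the 13 segments. Without ICR 2 the number of such segments was 7. The 13 segments together held 3.12, 13.4 and 7.29% of V counts in ICR 1, 2 and 3. Igkv4 was the largest family among the ICR-only segments, with 8 of the 19, and it is also the largest family of the locus here, with 23 of the 94 members. A 0 allows up to 0.0989, 0.0989 and 0.167% of V counts in the NOD/Ltj libraries, against up to 0.680% in ICR 1, 0.0707% in ICR 2 and 0.310% in ICR 3. Whether a segment is missing from a strain's genome, differs in sequence or was not used cannot be told apart from these counts.

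**Figure D4:**
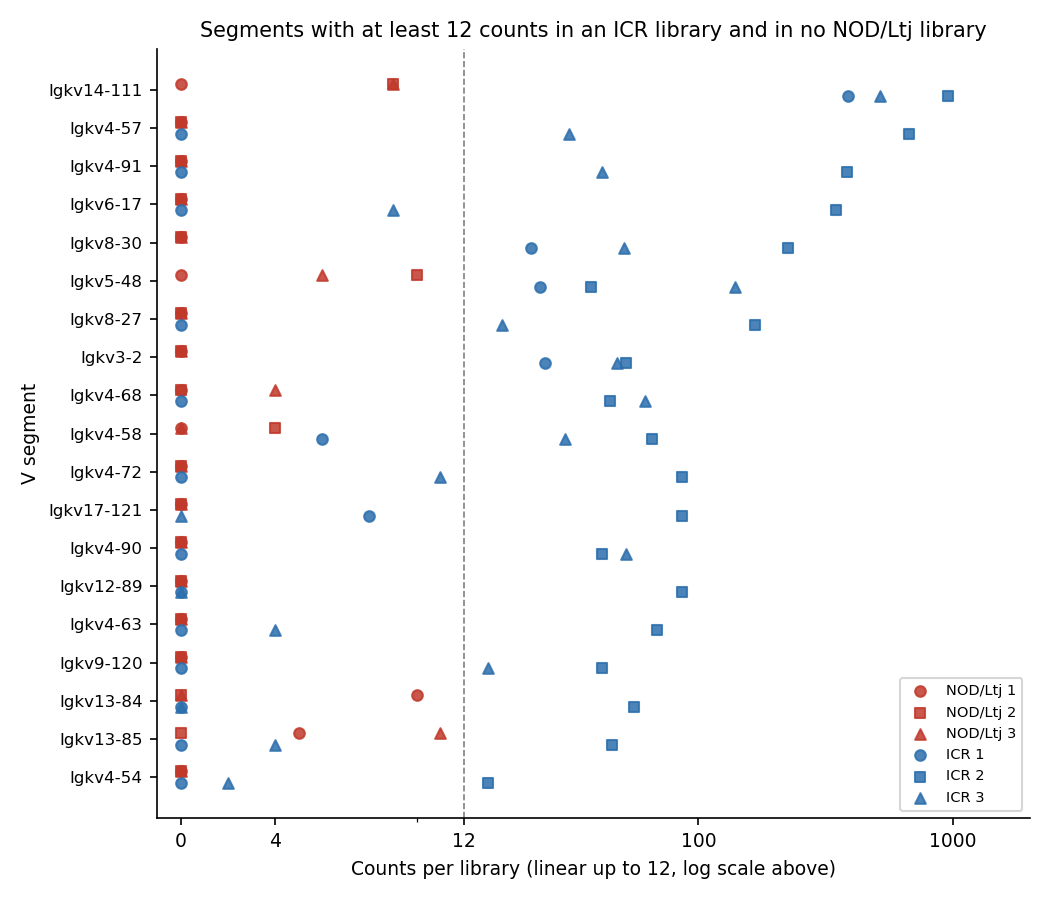
Counts per library (linear up to 12, log scale above) of the 19 segments with at least 12 counts in an ICR library and in none of NOD/Ltj, NOD/Ltj in red above ICR in blue in each row. The dashed line marks 12 counts; Igkv14-111, Igkv8-30, Igkv5-48 and Igkv3-2 passed it in all 3 ICR libraries, and most of the others in ICR 2 alone or in ICR 2 and 3.

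By family, the first number of an Igkv symbol, few differences stood clear of the spread. The Igkv14 family held 1.44 ± 0.918% of V counts in NOD/Ltj and 14.3 ± 8.05% in ICR (SD, n = 3 each), without overlap, and Igkv14-111 made up nearly all of it in ICR. The Igkv10 family held 7.83 ± 0.566% in NOD/Ltj and 5.94 ± 0.591% in ICR, also without overlap. Its share in ICR is lowered by the counts that the ICR-only segments take there. The large families overlapped: Igkv4 held 10.3 ± 1.67% in NOD/Ltj and 14.2 ± 8.47% in ICR, and Igkv6 held 11.6 ± 2.35% in NOD/Ltj and 10.96 ± 3.90% in ICR. By position, the 40 rows of the locus nearest the J segments held 36.5, 31.5 and 28.7% of Igkv counts in NOD/Ltj, against 31.4, 31.9 and 19.3% in ICR. The 40 rows furthest from the J segments held 29.9, 26.8 and 29.9% in NOD/Ltj, against 46.2, 19.2 and 35.9% in ICR. All 4 such blocks of 40 rows overlapped between the strains, and each held segments at 0 in NOD/Ltj (2, 4, 3 and 4 from the far end to the J end). Segments annotated as V pseudogenes held 1.15, 1.55 and 0.0278% of V counts in NOD/Ltj, against 0, 0.259 and 0.103% in ICR. The annotation is that of the C57BL/6J genome, and whether it holds for these segments in NOD/Ltj or ICR was not analysed.

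Kappa segments dominated in every library. Igkv segments held 90.0% (95% Wilson interval 88.9 to 91.0), 86.9% (85.6 to 88.0) and 89.7% (88.2 to 91.0) of V counts in NOD/Ltj, against 89.9% (86.9 to 92.5), 90.5% (89.6 to 91.4) and 97.2% (96.0 to 98.1) in ICR. The means were 88.9 ± 1.72% in NOD/Ltj and 92.6 ± 4.06% in ICR (SD, n = 3 each), and the groups overlapped. As a ratio, there were 9.01, 6.62 and 8.67 Igkv counts per Iglv count in NOD/Ltj, against 8.92, 9.54 and 35.1 in ICR. ICR 3, with 107 Iglv counts, set the upper end: without it the difference in kappa share was −1.37 percentage points in place of −3.71. The constant genes, which the selection did not use, gave a higher kappa share, with Igkc at 97.1, 93.4 and 95.2% of light chain constant counts in NOD/Ltj, against 96.9, 96.9 and 98.6% in ICR. Their ratio of kappa to lambda was 33.8, 14.2 and 19.7 in NOD/Ltj, against 31.3, 30.8 and 72.3 in ICR. On both readouts NOD/Ltj 2 had the lowest kappa share and ICR 3 the highest.

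The lambda locus has few V segments in laboratory mice, and all 3 annotated ones were members. Iglv1, the main lambda segment, had 1116, 989 and 530 counts in NOD/Ltj, against 176, 1518 and 81 in ICR (log2 fold change 0.53 ± 0.97 SE, adjusted p = 0.892 by edgeR). Iglv2 had 49, 411 and 100 counts in NOD/Ltj, against 0, 35 and 4 in ICR (log2 fold change 3.57 ± 1.30 SE, adjusted p = 0.297). Iglv3 had 48, 193 and 114 counts in NOD/Ltj, against 2, 59 and 22 in ICR (log2 fold change 1.88 ± 0.96 SE, adjusted p = 0.483). Iglv2 alone was free of overlap, and none of the 3 passed the test with edgeR. With DESeq2's Wald test Iglv2 passed at an adjusted p of 0.0373. Of Iglv counts, Iglv2 made up 4.04, 25.8 and 13.4% in NOD/Ltj (95% Wilson intervals 2.28 to 6.79, 21.8 to 30.4 and 9.27 to 19.1%), against 0, 2.17 and 3.74% in ICR (upper limits 8.03, 4.19 and 18.3%). NOD/Ltj 2 lay above the interval of each other library, while NOD/Ltj 1 and NOD/Ltj 3 lay within the range of the ICR intervals. For NOD/Ltj 3 this was through ICR 3 only, whose interval rests on 27 Iglv fragments.

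Iglv1 and Iglv2 differ at 7 of the 280 bases printed, a pair whose reads a counting step must separate by few positions. They lie on the minus strand of chromosome 16, at chr16:19085017-19085500 (Iglv1) and chr16:19260401-19260859 (Iglv2) in GRCm38. Capitals mark the 7 bases.
Iglv1: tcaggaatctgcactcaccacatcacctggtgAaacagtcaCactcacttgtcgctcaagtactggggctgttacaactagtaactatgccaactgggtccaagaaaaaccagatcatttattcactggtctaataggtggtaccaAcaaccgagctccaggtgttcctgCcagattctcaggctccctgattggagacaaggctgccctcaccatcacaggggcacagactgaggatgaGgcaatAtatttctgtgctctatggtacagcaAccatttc
Iglv2: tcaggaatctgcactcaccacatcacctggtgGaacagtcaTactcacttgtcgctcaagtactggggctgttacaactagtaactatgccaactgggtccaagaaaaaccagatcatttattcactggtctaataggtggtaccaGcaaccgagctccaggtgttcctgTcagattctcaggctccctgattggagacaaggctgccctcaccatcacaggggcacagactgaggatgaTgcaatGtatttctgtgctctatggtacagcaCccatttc

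**Figure D5:**
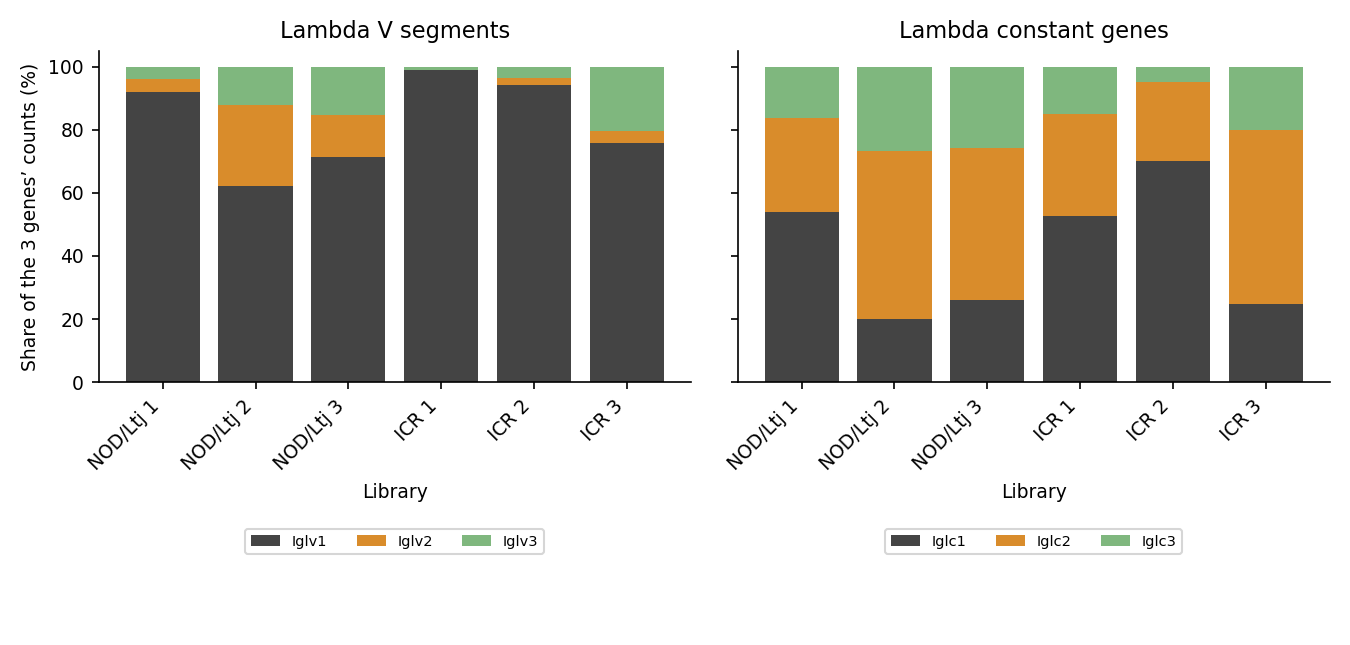
Shares of the counts of the 3 Iglv segments (left) and of Iglc1, Iglc2 and Iglc3 (right), in percent, as stacked bars for NOD/Ltj 1 to 3 and then ICR 1 to 3. Iglv1 was the largest Iglv share in every library, while Iglc2 and Iglc3 together passed Iglc1 in NOD/Ltj 2, NOD/Ltj 3 and ICR 3.

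The light chain constant genes, to which rearranged V segments are spliced, showed the same uneven picture. Of 5 on the list, 4 were tested and 1 rose. Iglc3 had 550, 2878 and 1443 counts in NOD/Ltj, against 66, 161 and 87 in ICR, and rose by 3.74 ± 0.56 on the log2 scale (SE, adjusted p = 0.0189 by edgeR). That call was lost without ICR 3 (adjusted p = 0.0942), NOD/Ltj 2 (0.0751) or NOD/Ltj 3 (0.0982). Iglc2 had 997, 5719 and 2674 counts in NOD/Ltj, against 141, 810 and 240 in ICR, with a log2 fold change of 2.75 ± 0.75 (SE, adjusted p = 0.142 by edgeR). Iglc2 and Iglc3 are closely similar genes, and how the counting shared reads between them is not given in the sources used here. Iglc1 had 1808, 2141 and 1450 counts in NOD/Ltj, against 231, 2287 and 107 in ICR (adjusted p = 0.775 by edgeR). Igkc stood at 1886 ± 218 CPM in NOD/Ltj and 788 ± 740 CPM in ICR (SD, n = 3 each), without overlap and not called (adjusted p = 0.513 by edgeR).

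Igkv counts relative to Igkc stood apart between the strains over all members. There were 9.64, 6.93 and 5.87 Igkv counts per 100 Igkc counts in NOD/Ltj, against 11.6, 15.3 and 11.98 in ICR. These groups did not overlap, at 7.48 ± 1.94 in NOD/Ltj and 13.0 ± 2.06 in ICR (SD, n = 3 each). With the ICR-only segments left out, the values were 9.62, 6.91 and 5.84 in NOD/Ltj, against 8.14, 11.9 and 8.69 in ICR. The groups then overlapped, but these segments had been picked from the same counts as low in NOD/Ltj. Leaving them out lowers mainly the ICR values by construction, and the NOD/Ltj-only segments were left in. The share of fragments from either strain that could not be placed on the reference segments was not analysed here. At the lambda locus there were 36.2, 14.8 and 13.4 Iglv counts per 100 Iglc counts in NOD/Ltj, against 40.6, 49.5 and 24.7 in ICR, with overlap. The kappa J segments, counted as rows of their own, were led by Igkj1 in NOD/Ltj with 46.2, 50.8 and 70.7% of Igkj counts, against 3.08, 42.2 and 68.1% in ICR. ICR 1 held 130 Igkj counts in all, so that its J use rests on few fragments. Igkj2 held 23.6, 31.6 and 1.01% of Igkj counts in NOD/Ltj, against 50.8, 27.0 and 1.13% in ICR. It was thus low in NOD/Ltj 3 and ICR 3 alike, and how the counting treated the J rows was not tested.

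Heavy chain V segments, the partner genes of the same antibodies, gave a similar picture by library. Their summed level was 64.6, 37.3 and 24.9 CPM in NOD/Ltj, against 3.09, 59.4 and 13.6 CPM in ICR, in the same order of libraries as the light chain segments within each strain. Of 92 Ighv rows that met the same rule, 60, 58 and 44 were used in NOD/Ltj, against 8, 68 and 24 in ICR. The 10 top Ighv segments held 40.4, 41.9 and 41.6% of Ighv counts in NOD/Ltj, against 73.8, 41.3 and 55.0% in ICR. Of the 56 Ighv segments tested, 0 were called by edgeR and 0 by DESeq2 (1 at an unadjusted p under 0.05, higher), with a median log2 fold change of 1.14. There were 3.48, 4.06 and 4.38 light chain V counts per heavy chain V count in NOD/Ltj, against 8.25, 4.62 and 4.98 in ICR, and these groups did not overlap. ICR 1, with 214 Ighv counts, set the widest part of that difference.

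The B lineage genes beside the V segments moved unevenly. Of 10 B cell genes, such as the transcription factor gene Pax5, 9 rose by edgeR and 10 by DESeq2, with a median log2 fold change of 6.09. Without NOD/Ltj 3 the number called was 0. Their 6 markers summed to 105, 428 and 291 CPM in NOD/Ltj, against 2.04, 5.38 and 5.84 CPM in ICR. Of 11 plasma cell genes, such as Jchain, which joins IgA and IgM units, 0 were called in either direction by edgeR (2 at an unadjusted p under 0.05 and 2 by DESeq2, all higher), with a median log2 fold change of 0.35. Their 7 markers summed to 647, 608 and 534 CPM in NOD/Ltj, against 240, 777 and 287 CPM in ICR. Jchain and Derl3 made up most of these sums. Jchain stood at 517, 454.2 and 394.7 CPM in NOD/Ltj, against 125.5, 499.7 and 103.8 CPM in ICR. Derl3 stood at 108.6, 122.6 and 110.6 CPM in NOD/Ltj, against 98.5, 250.1 and 166.6 CPM in ICR. Which cells of the gland expressed these genes was not tested. The summed plasma cell markers thus overlapped between the strains, as did the light chain V level, and ICR 2 was highest on both sums. The B cell markers did not overlap. The part of either marker set in the V segment values was not tested, and in whole glands fewer cells and less RNA per cell cannot be told apart.

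Of 8 heavy chain constant genes, edgeR called Ighm and Ighd higher and did not call the other 6, while DESeq2 called 3 higher. Ighm, the constant region of IgM, stood at 187 ± 129 CPM in NOD/Ltj and 12.1 ± 2.22 CPM in ICR (SD, n = 3 each, adjusted p = 0.0161 by edgeR), and Ighd, that of IgD, at 114 ± 74.8 CPM in NOD/Ltj and 1.72 ± 0.270 CPM in ICR (SD, n = 3 each, adjusted p = 0.0102 by edgeR). Both calls were lost without NOD/Ltj 3 (adjusted p = 0.0828 for Ighm and 0.0658 for Ighd). The call of Ighm was also lost without ICR 2 (0.0843), without ICR 3 (0.0816) and with the replicate number as a block (0.0871). Igha, the constant region of IgA, stood at 1078 ± 260 CPM in NOD/Ltj and 569 ± 499 CPM in ICR (SD, n = 3 each), with overlap (adjusted p = 0.609 by edgeR). Of the 7 surrogate light chain and recombination genes, which serve the making of new B cells in bone marrow, 1 was tested and not called, and Rag1, Rag2 and Vpreb2 were at 0 in all 6 libraries. Among markers of other cell types, 4 of 5 T cell genes rose, 0 of 5 macrophage genes were called by edgeR (1 at an unadjusted p under 0.05, 0 by DESeq2), and 0 of 4 acinar genes were called by edgeR (0 at an unadjusted p under 0.05, 0 by DESeq2). Their summed levels were 21.8 to 61.4 CPM in NOD/Ltj and 1.79 to 2.57 CPM in ICR for T cells, and 64.5 to 102 CPM in NOD/Ltj and 22.8 to 94.4 CPM in ICR for macrophages.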

How the data were processed

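The authors deposited 1 table of estimated counts per gene for 6 polyadenylated RNA libraries, in whole numbers with no scaling across libraries. Tools named in the submitters' processing notes are fastp, StringTie and edgeR. Aligner, build, versions and strand setting were not given in the sources used here. The test had been planned for counts, and as the values were whole none was rounded. Over all genes, low values piled up at 4 counts, with 808 to 1043 genes per library. Counts of 3 were held by 368 to 497 genes and counts of 5 by 223 to 337. Multiples of 4 made up 30.4 to 31.7% of values from 1 to 40. About 4 counts per fragment were therefore assumed. The V rows, which also hold other values, were not checked separately, so fragment numbers and intervals are approximate. A 0 allows 3 fragments, or 12 counts. No column was left out. Symbols (55141 of 55401 rows), biotypes, locus order and V sequences came from GENCODE M21 on GRCm38.

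Strains were compared with edgeR 4.0.16 in R 4.3.3 (quasi-likelihood test, two-sided, TMM factors 0.809 to 1.25, filterByExpr, no block, Benjamini-Hochberg adjustment over 18537 genes, calls at an adjusted p under 0.05). The common biological coefficient of variation was 0.421, and SE was taken from F as |log2 fold change| over its root. On simulated data with large changes and the same dispersion for every gene, lower than here, the script recovered the changed genes. Its power for segments that vary widely between libraries was not tested. Alternatives were DESeq2 1.42.0, its size factors in edgeR, no filter, a replicate block, each library left out, and other thresholds or depths for the shares. Between any pair of libraries chi-square over genes was 94.3 to 921 times its degrees of freedom, so none was a duplicate. Shares, numbers used and sums over members have no test. Named were all Iglv segments, the 3 top segments per library, the 12 largest mean Igkv shares, called members, and the 4 largest share differences without overlap per direction; Igkv2-109, Igkv6-29, near neighbours and the other segments at 0 in NOD/Ltj were named after their values were seen. Members and lists were chosen with earlier results of these data known.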

Additional observations from a re-analysis of the deposited data

How the results depend on the processing

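The number of genes called moved from 416 to 1183 with DESeq2's Wald test, to 154 with the replicate number as a block, and to between 13 and 524 with a library left out. Light chain V segments called higher numbered 0 in the edgeR fit, 6 with DESeq2's Wald test and 0 to 1 with a library left out. Those called lower numbered 2 in the edgeR fit, 4 with DESeq2's Wald test, 1 with the replicate block and 0 to 4 with a library left out. The block ended the call of Igkv3-2 (adjusted p = 0.215) and kept that of Igkv14-111 (adjusted p = 0.0252). Same-numbered libraries deviated together with correlations of −0.12, −0.15 and 0.07, against −0.07 to 0.17 for the other pairs. This gave no sign that the numbers pair the samples, and with so few libraries it cannot exclude it. Among the segments named by the rule, the log2 fold change, not called, turned sign with a library left out for Igkv12-44 (−0.057 to 0.92), Igkv12-46 (−0.22 to 2.20), Igkv19-93 (−1.52 to 3.73, and 1.95 with the replicate block) and Igkv6-23 (−2.41 to 0.33). The turn came without ICR 1 for both Igkv12 segments (also without ICR 3 for Igkv12-46) and without ICR 2 for the others. The cause was not tested.

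With a library left out, the difference NOD/Ltj minus ICR ran from −9.31 to 115 CPM for the summed level, from −5.02 to −1.37 percentage points for the kappa share, from −5.50 to 18.5 for the number of segments used, and from −9.98 to −2.11 percentage points for the 10 top segments. Segments at 0 in all NOD/Ltj libraries numbered 7 to 15, an alternative chosen after seeing the data. The depth of ICR 1, about 441 V fragments, limits what its shares and zeros show.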
